A study of Danio rerio with 28 samples.

Results

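The keratin and claudin genes of the zebrafish were followed in whole embryos over the first 4 days of development. The members were every gene whose symbol, reached through the RefSeq accession of an array probe, begins with krt or cldn followed by a number or t. This gave 17 keratins on 23 probes and 23 claudins on 27 probes, 40 of the 10536 genes that could be named. The rule uses names and no measured value. The reference annotation holds 21 keratins and 37 claudins by the same wording, and those not matched to a probe were not analysed here. A gene with several probes is represented by the one whose signal, averaged over the 28 arrays, was highest.

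Zebrafish embryos, of the DZ strain per the methods, were kept from 3 hours post fertilization (hpf) in 1 µM 17β-estradiol (E2), which was dissolved in DMSO, or in the vehicle alone, 0.1% DMSO. They were collected at 24, 48, 72 and 104 hpf, named 1, 2, 3 and 4 days post fertilization (dpf). Each array was hybridized with Cy3-labelled RNA from 1 pool of 30 whole embryos, which made 8 groups and 28 arrays. The 2 earlier stages had 3 pools per treatment and the 2 later ones 4. Per the methods, biological replicates came from different breeding pairs of the same strain. The study asked which genes respond to E2 at which stage, and the DMSO embryos give the normal course of each gene.

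Keratins build the intermediate filaments of epithelial cells, in which an acidic type I protein pairs with a basic type II protein. Fish embryos are first covered by an enveloping layer, which becomes the periderm and lies over the basal layer of the epidermis. Claudins are membrane proteins of tight junctions. Some seal the space between epithelial cells and others form pores for ions, so the set present in an epithelium sets what can pass between its cells.

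The values below are log2 signals after quantile normalization between arrays. Changes are differences of these log2 signals, each with its standard error (SE), from a limma model of the 28 arrays in which the replicate number is a block. Adjusted p-values are Benjamini-Hochberg values over all 43603 probes, and a change was called where the adjusted p was under 0.05. A change of 1 is a change of 2-fold. Signals of different probes cannot be set against each other. In RNA from whole embryos, a change in the number of cells of a type and a change in RNA per cell cannot be told apart.

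Between 58.1% and 96.1% of the probes of an array passed the scanner software's test for a signal well above background. The highest share was on the array of E2 replicate 1 at 3 dpf, which also deviated most from its group over all probes (SD 1.37, against 0.338 to 0.685 on the other 27 arrays). Changes of E2 against DMSO that rest on it are given with and without it for main probes. Of 17 keratins 14 were well above background on all 28 arrays, and of 23 claudins 17 were. The epidermal genes tp63 and cdh1 were well above background on 28 of 28 arrays, and so were 11 of the 17 measured marker genes for the tissues of a whole embryo, with 18 arrays for the least often detected.

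Among the DMSO embryos 15 of 17 keratins and 17 of 23 claudins differed between stages by the moderated F test, where 69.6% of all named genes did. From 1 to 2 dpf 9 keratins were called, 5 higher and 4 lower, and 13 claudins, 9 higher and 4 lower, against 39.9% of all named genes (17.9% higher and 22% lower). From 2 to 3 dpf it was 8 keratins, 6 higher and 2 lower, and 10 claudins, 8 higher and 2 lower, against 25.9% (15.1% higher and 10.8% lower). From 3 to 4 dpf it was 7 keratins and 6 claudins, all of them higher, against 19.4% (8.57% higher and 10.8% lower). The median change of the keratins was -0.02, -0.01 and 0.61 over the 3 steps and that of the claudins -0.16, 0.22 and 0.22, beside -0.13, 0.02 and -0.06 for all named genes. Without the replicate block 15 of the 53 calls were lost, which left 7 claudins in place of 13 from 1 to 2 dpf and 4 keratins in place of 7 from 3 to 4 dpf. With 75th percentile scaling the split of higher and lower calls was 7 and 6 for the claudins from 1 to 2 dpf and 5 and 3 for the keratins from 2 to 3 dpf. The keratins thus moved in both directions at 1 to 2 dpf, with changes from -3.59 to 4.08, and the claudins ranged from -1.49 to 4.17.

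**Figure D1:**
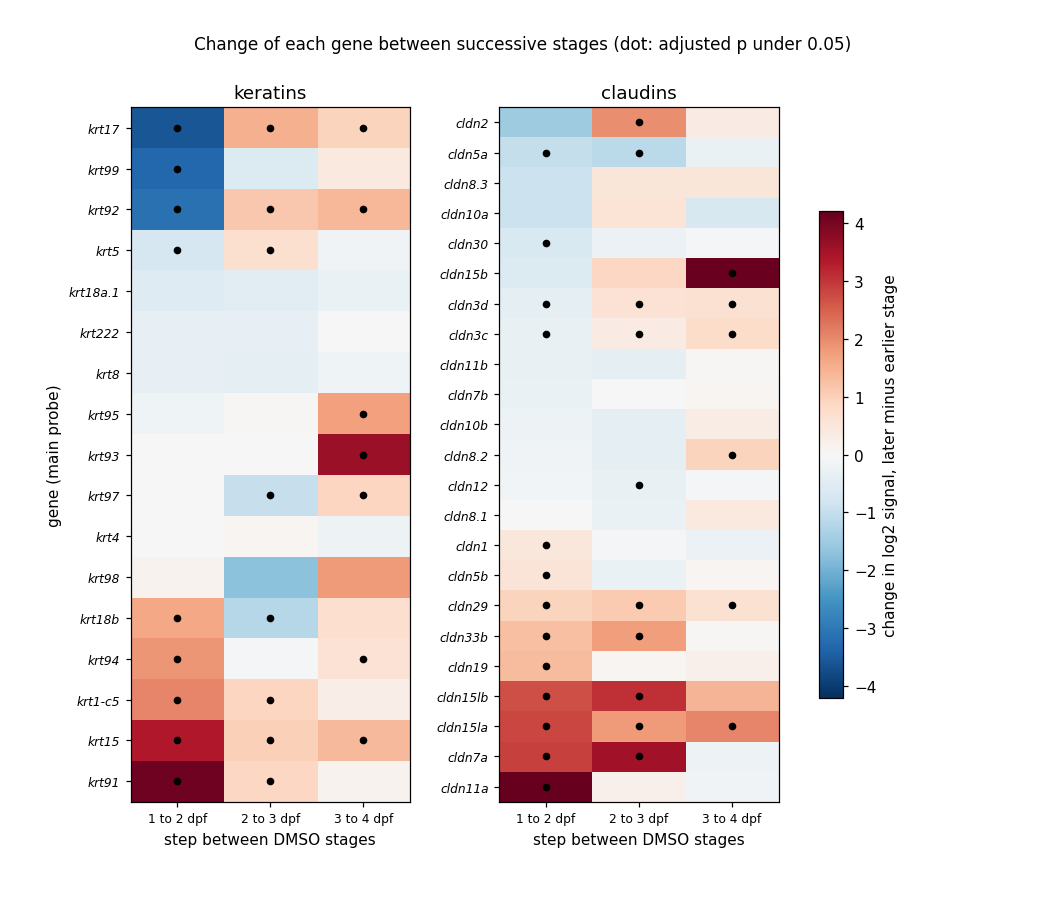
Change in log2 signal of each keratin (left) and claudin (right) over the 3 steps between DMSO stages, later minus earlier stage, with genes ordered by their change from 1 to 2 dpf. Dots mark an adjusted p under 0.05. Most called falls lie in the first step, whereas the last step holds called rises only, 7 in keratins and 6 in claudins.

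krt92, krt17 and krt91, which lie side by side in the reference, gave some of the largest changes of the keratins, in opposite directions. krt17, whose mammalian namesake is a keratin of hair follicles and of stressed epidermis, measured 16.09, 14.82 and 14.98 in the DMSO pools at 1 dpf and 11.95, 11.46 and 11.69 at 2 dpf. It then measured 13.44, 12.99, 13.08 and 13.42 at 3 dpf and 14.72, 13.45, 14.06 and 14.41 in the 4 dpf pools. The pools of 2 dpf were lower than every pool of the other stages, and the groups of successive stages did not overlap. krt17 fell by 3.59 (SE 0.28) on the log2 scale from 1 to 2 dpf, 12.1-fold, with an adjusted p of 1.19e-08 in limma. It rose by 1.51 (SE 0.27, adjusted p = 0.000554) and then by 0.93 (SE 0.24, adjusted p = 0.0174), and the last rise was no longer called without DMSO replicate 1 of 3 dpf or DMSO replicate 3 or 4 of 4 dpf (adjusted p up to 0.0698). The change from 1 to 4 dpf was -1.16 (SE 0.27, adjusted p = 0.00125).

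krt92, the gene beside it, had the same course. It measured 16.81, 16.00 and 15.93 at 1 dpf, 13.29, 12.96 and 13.05 in the 2 dpf pools, 14.00, 13.97, 14.55 and 14.58 at 3 dpf, and 15.54, 15.80, 15.67 and 15.72 in the 4 dpf pools. No pool of one stage reached into the range of the next. krt92 fell by 3.14 (SE 0.27, adjusted p = 3.6e-08), 8.84-fold, and rose by 1.13 (SE 0.26, adjusted p = 0.00445) and 1.41 (SE 0.23, adjusted p = 0.000419). Its level at 4 dpf was not separated from that at 1 dpf by the test (change -0.61, SE 0.26, adjusted p = 0.0586).

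krt91 ran the other way. Its signal was 10.79, 11.38 and 11.40 at 1 dpf and 14.78, 15.60 and 15.42 in the 2 dpf pools, and between 16.02 and 16.49 in the 8 DMSO pools of 3 and 4 dpf. It rose by 4.08 (SE 0.18, adjusted p = 1.47e-11), 16.9-fold, and by a further 0.88 (SE 0.17, adjusted p = 0.00138), and changed by 0.13 (SE 0.16) in the last step, which was not called. Thus the step at which krt17 and krt92 fell most was the step at which krt91 rose most. The E2 pools, which are separate pools, gave -3.54, -3.08 and 4.23 for krt17, krt92 and krt91 over that step.

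**Figure D2:**
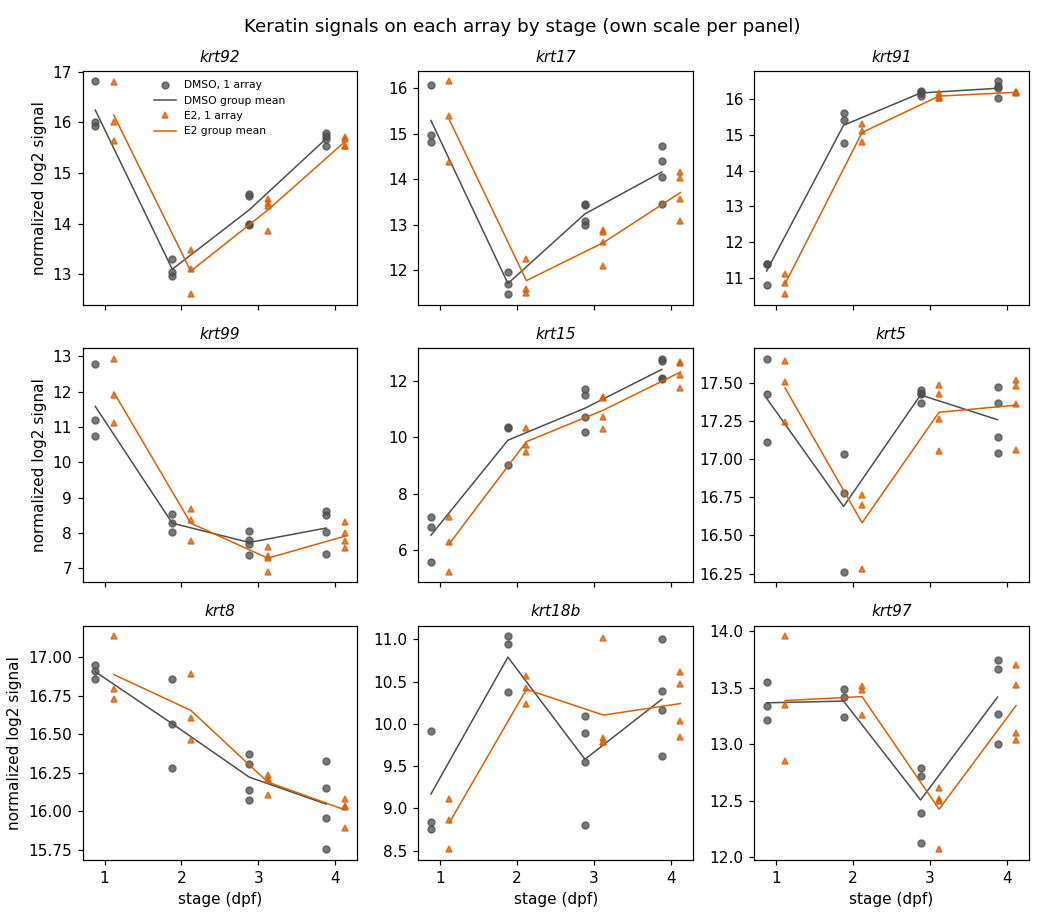
Normalized log2 signal (vertical axis, own scale in each panel) of 9 keratins by stage in dpf. Each grey circle is 1 DMSO array and each orange triangle 1 E2 array, and lines join the group means. krt92 and krt17 are lowest at 2 dpf and climb again, krt91 and krt15 climb, krt99 falls and stays low, and the orange and grey points of most panels overlap.

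A second run of neighbours holds krt93, krt94, krt98, krt15 and krt99. krt99 measured 12.79, 10.75 and 11.20 at 1 dpf and 8.52, 8.03 and 8.27 in the 2 dpf pools, and between 7.38 and 8.62 in the 8 later DMSO pools. It fell by 3.30 (SE 0.35, adjusted p = 5.12e-07), 9.88-fold, and did not return (1 to 4 dpf -3.46, SE 0.33, adjusted p = 3.47e-08). This sets it apart in course from krt17 and krt92, which fell by a like amount and rose again.

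krt15, whose mammalian namesake is a type I keratin of basal epidermal cells, rose at every step. It measured 5.58, 7.17 and 6.82 at 1 dpf, 9.01, 10.33 and 10.35 in the 2 dpf pools, 10.19, 10.72, 11.71 and 11.51 at 3 dpf, and 12.06, 12.11, 12.70 and 12.78 in the 4 dpf pools. The pools of 2 and 3 dpf overlapped and the other neighbouring stages did not. The rises were 3.37 (SE 0.29, adjusted p = 3.17e-08), 1.00 (SE 0.27, adjusted p = 0.015) and 1.38 (SE 0.25, adjusted p = 0.000934), which made 53.9-fold from 1 to 4 dpf. The middle one was lost without DMSO replicate 1 or 3 of 2 dpf or DMSO replicate 3 of 3 dpf (adjusted p up to 0.108). Within the scan batch that held 2 pools of 2 dpf and 1 of 3 dpf it was 0.52, and with the slide as block 0.59 (adjusted p = 0.182). Without the replicate block the middle and last rises were 1.14 and 1.38 and were not called (adjusted p = 0.16 and 0.0775).

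Other keratins of this run rose as well. krt94 measured 9.12, 8.83 and 8.06 at 1 dpf and 10.40, 10.80 and 10.38 in the 2 dpf pools, a rise of 1.85 (SE 0.19, adjusted p = 4.27e-07). Its signal then ranged from 10.28 to 10.59 at 3 dpf and from 11.01 to 11.07 in the 4 dpf pools. This late rise of 0.61 (SE 0.17, adjusted p = 0.0214) lost its call without any 1 of 5 of the 8 arrays compared, which were DMSO replicates 1 and 2 of 3 dpf and DMSO replicates 2, 3 and 4 of 4 dpf (adjusted p up to 0.0798). With the slide as block it was 0.37 (adjusted p = 0.232).

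krt93 was not above background on any DMSO array before 4 dpf, where it measured 3.49, 4.05, 4.95 and 5.09 and was above background in 4 of 4 pools. From 3 to 4 dpf it was at least 3.05-fold higher (adjusted p = 2.81e-07 of the fitted change), a bound that sets the dim pools to the lowest signal well above background on their arrays. After normexp background correction its rise was 0.54 on the log2 scale, which is less than this bound. That correction was run with an offset of 50, which shrinks changes of dim probes, so the bounds given here hold for the main processing only. krt95, which lies outside the run, was likewise detected in DMSO only at 4 dpf, in 3 of 4 pools (0.70, 3.29, 3.41 and 3.45). Its fitted rise was called (adjusted p = 0.0142), no fold is given since the bound is under 1, and the call was lost without DMSO replicate 4 of 3 dpf or DMSO replicate 2, 3 or 4 of 4 dpf (adjusted p up to 0.071), and after normexp (0.13, adjusted p = 0.296). The main probe of krt98 ranged from 0.88 to 4.38 in DMSO and was not called at any step. Its second probe was at background in all DMSO pools of 1 and 2 dpf, above it in 1 of 4 pools at 3 dpf and in 4 of 4 at 4 dpf, and its fitted change over that last step was called (adjusted p = 0.00855).

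Changes were smaller in krt5, krt8, krt18a.1 and krt4. krt5, whose mammalian namesake is a type II keratin of basal epidermal cells, next to krt8 and krt18a.1 in the reference, measured 17.66, 17.42 and 17.11 at 1 dpf, 16.26, 17.03 and 16.78 in the 2 dpf pools, and 17.37 to 17.45 at 3 dpf. The first step was a fall, of -0.71 (SE 0.19, adjusted p = 0.007), and the next a rise of 0.69 (SE 0.18, adjusted p = 0.0107). The 3 other probes of krt5 changed by -0.77, -0.81 and -0.69 at the first step, so that 4 of 4 probes gave the dip. The dip lost its call without DMSO replicate 1 of 1 dpf or of 2 dpf, and the rise without DMSO replicate 1 of 2 dpf (adjusted p 0.0689 and 0.11 at most). In the scan batch with 1 pool of each of 1 and 2 dpf the dip was -0.34.

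krt8 and krt18a.1, which in vertebrates make up the keratin pair of simple epithelia, declined slowly. krt8 measured 16.95, 16.86 and 16.91 at 1 dpf and 15.95, 15.75, 16.33 and 16.15 in the 4 dpf pools. krt18a.1 measured 14.44, 13.49 and 13.88 at 1 dpf and 12.77, 12.47, 12.75 and 12.55 in the 4 dpf pools. Neither was called at a single step, but from 1 to 4 dpf krt8 fell by 0.88 (SE 0.13, adjusted p = 1.4e-05) and krt18a.1 fell by 1.27 (SE 0.21, adjusted p = 3.73e-05), where 65.9% of named genes were called (28.8% higher and 37.1% lower). krt222 also fell by 0.71 over this span (SE 0.17, adjusted p = 0.00169).

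krt4, a type II keratin of the enveloping layer and periderm, was not called at any step by its main probe, which stayed between 18.13 and 18.52 in all 14 DMSO pools. Its second probe fell by 1.17 from 1 to 4 dpf (adjusted p = 0.000305), with values between 15.18 and 15.44 at 1 dpf and between 13.96 and 14.40 at 4 dpf. Whether the bright probe still responds in proportion at that level was not tested, although the scanner software marked 0 spots as saturated. Quantile normalization gives a probe the value of its rank on each array. The main probe took the same value, 18.33, in DMSO replicate 3 of 2 dpf and DMSO replicates 3 and 4 of 3 dpf. Its flat course is therefore set in part by the normalization, and its level before normalization is not given here.

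krt18b, the neighbour of krt4, rose by 1.62 (SE 0.32, adjusted p = 0.000766) from 1 to 2 dpf and fell by 1.19 (SE 0.31, adjusted p = 0.0114) to 3 dpf. It measured 8.75, 9.92 and 8.84 at 1 dpf, 10.38, 11.04 and 10.95 in the 2 dpf pools, and 8.80, 9.89, 10.09 and 9.54 at 3 dpf. The fall was lost without DMSO replicate 3 of 2 dpf or DMSO replicate 1 of 3 dpf (adjusted p up to 0.0581), and in the E2 pools it was not called. With the slide as block in place of the replicate number it was -0.49 (adjusted p = 0.384).

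krt97 changed by 0.02 from 1 to 2 dpf, which was not called, fell by 0.96 (SE 0.21, adjusted p = 0.00364) to 3 dpf and rose by 0.91 (SE 0.19, adjusted p = 0.00377) to 4 dpf. It measured 13.24, 13.41 and 13.49 at 2 dpf, 12.12, 12.39, 12.79 and 12.72 in the 3 dpf pools, and 13.00, 13.26, 13.66 and 13.74 at 4 dpf. The pools of 3 dpf lay below all pools of the stages on either side, and with the slide as block the fall was -0.61 (adjusted p = 0.0623). krt1-c5 measured 6.19, 6.28 and 6.86 at 1 dpf and 8.34, 8.62 and 8.52 in the 2 dpf pools, a rise of 2.05 (SE 0.26, adjusted p = 4.75e-06). Its next rise of 0.89 (SE 0.25, adjusted p = 0.0164) was lost without DMSO replicate 1 of 2 dpf or of 3 dpf (adjusted p up to 0.115). Neighbouring keratin genes can be near-identical, and cross-hybridization between their probes was not tested.

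The claudins with the largest rises were cldn7a, the cldn15 relatives and cldn11a. cldn7a, whose mammalian counterpart is a junction protein of many epithelia, measured 3.17, 4.00 and 4.12 at 1 dpf, 5.52, 7.51 and 6.89 in the 2 dpf pools, 9.90, 9.99, 10.52 and 10.56 at 3 dpf, and 9.66, 9.79, 10.30 and 10.36 in the 4 dpf pools. All pools of a stage were above all pools of the stage before up to 3 dpf, where the signal levelled off. The rises were 2.88 (SE 0.28, adjusted p = 1.53e-07), 7.35-fold, and 3.52 (SE 0.26, adjusted p = 2.17e-08), 11.5-fold. At 1 dpf it was above background in 2 of 3 DMSO pools, and after normexp background correction the first rise was 1.03 (adjusted p = 0.000136). Its paralogue cldn7b ranged from 10.78 to 12.14 in DMSO and was not called at any step.

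**Figure D3:**
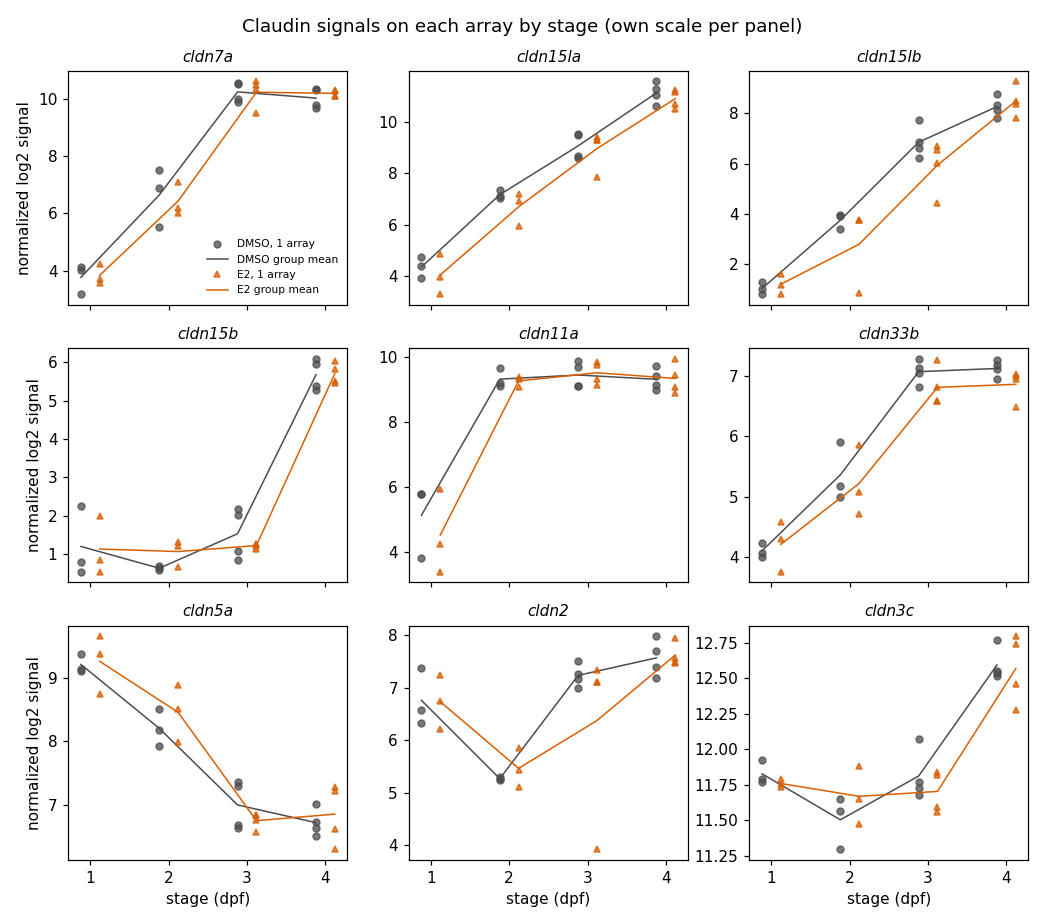
Normalized log2 signal (vertical axis, own scale in each panel) of 9 claudins by stage in dpf, with 1 DMSO array per grey circle, 1 E2 array per orange triangle and lines through the group means. cldn7a and cldn33b level off at 3 dpf, cldn11a at 2 dpf, cldn15la and cldn15lb climb to 4 dpf, cldn15b appears at 4 dpf, and cldn5a falls. A single E2 array at 3 dpf gives the low cldn2 point at 3.92.

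cldn15la, a claudin of the zebrafish gut epithelium, rose at each step. It measured 3.92, 4.76 and 4.40 at 1 dpf, 7.13, 7.33 and 7.04 in the 2 dpf pools, 8.65, 8.57, 9.53 and 9.48 at 3 dpf, and 10.61, 11.56, 11.03 and 11.25 in the 4 dpf pools. No 2 neighbouring stages overlapped. The rises were 2.80 (SE 0.35, adjusted p = 5e-06), 1.79 (SE 0.34, adjusted p = 0.000941) and 2.06 (SE 0.31, adjusted p = 0.000147). After normexp the first of them was 1.46.

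cldn15lb was not above background in any pool of 1 dpf and measured 3.96, 3.90 and 3.40 at 2 dpf, 7.71, 6.21, 6.63 and 6.85 in the 3 dpf pools, and 8.78, 7.82, 8.34 and 8.11 at 4 dpf. It was at least 1.73-fold higher at 2 than at 1 dpf (adjusted p = 0.00208 of the fitted change) and at least 39.5-fold higher at 4 dpf. From 2 to 3 dpf it rose by 3.06 (SE 0.58, adjusted p = 0.000957), and the further rise of 1.41 (SE 0.53) was not called in DMSO (adjusted p = 0.101). Its second probe was above background in 0 of 3 pools at 1 dpf and 2 of 3 at 2 dpf, and from 2 to 3 dpf it rose by 2.38 (adjusted p = 0.0379). After normexp background correction the first change of the main probe was 0.31 on the log2 scale, below its bound, and was not called (adjusted p = 0.485). The rise from 2 to 3 dpf was then 1.24.

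cldn15b, named after the mammalian claudin that forms cation pores in the intestine, was at background in all 10 DMSO pools before 4 dpf. At 4 dpf it measured 5.96, 6.09, 5.26 and 5.38, at least 7.40-fold higher than at 3 dpf (adjusted p = 2.45e-07 of the fitted change). Its second probe was above background on 1 of 28 arrays and shows no such rise, so the result rests on 1 probe. After normexp the main probe rose by 0.86 on the log2 scale, below the bound, and as the median over both probes the rise was 2.099.

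cldn11a, whose mammalian counterpart lies in myelin and in the testis, changed in a single step. It measured 3.82, 5.80 and 5.80 at 1 dpf and 9.20, 9.65 and 9.09 in the 2 dpf pools, and between 8.98 and 9.87 afterwards. The rise was 4.17 (SE 0.51, adjusted p = 3.38e-06), 18-fold, or 2.67 on the log2 scale after normexp, and the following changes were 0.22 and -0.13. Its paralogue cldn11b went the other way, from 8.91, 8.62 and 8.54 at 1 dpf to 8.296, 7.91, 7.85 and 7.95 in the 4 dpf pools, and fell by 0.67 over the whole span (SE 0.16, adjusted p = 0.00154).

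Further rises were smaller. cldn33b measured 4.07, 4.01 and 4.23 at 1 dpf, 5.00, 5.91 and 5.18 in the 2 dpf pools, and 6.81 to 7.29 at 3 dpf, with rises of 1.26 (SE 0.26, adjusted p = 0.00098) and 1.75 (SE 0.25, adjusted p = 4.91e-05), which after normexp were 0.40 (adjusted p = 0.0373) and 1.03. cldn19, whose mammalian namesake serves myelin and kidney, measured 4.29, 5.62 and 5.06 at 1 dpf and 6.05, 6.50 and 6.42 in the 2 dpf pools. This rise of 1.34 (SE 0.36, adjusted p = 0.00844) rests in part on the lowest of these pools. Without DMSO replicate 1 of 1 dpf it was 1.00 (adjusted p = 0.0732), and after normexp it was 0.56 (adjusted p = 0.0471).

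cldn29 rose at each step, by 0.93, 1.102 and 0.65 (SE 0.22, 0.21 and 0.19, adjusted p = 0.00274, 0.000859 and 0.0289). The last of these lost its call without any 1 of 6 of the 8 arrays compared (adjusted p up to 0.105), all except DMSO replicate 1 of 3 dpf and DMSO replicate 2 of 4 dpf. cldn2, in mammals a pore for cations and water, measured 7.37, 6.33 and 6.58 at 1 dpf, 5.29, 5.24 and 5.27 in the 2 dpf pools, and 7.001, 7.16, 7.52 and 7.27 at 3 dpf. Its DMSO pools of 2 dpf were below all other DMSO pools. The rise of 1.94 (SE 0.56, adjusted p = 0.022) was called and the drop before it was not (-1.49, SE 0.59, adjusted p = 0.0736). The rise lost its call without any 1 of DMSO replicates 1, 2 and 3 of 2 dpf and DMSO replicates 1 and 3 of 3 dpf (adjusted p up to 0.0779), and after normexp it was 1.11.

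The neighbours cldn3c and cldn3d, shared a shallow dip and a late rise. cldn3c measured 12.77, 12.55, 12.54 and 12.52 at 4 dpf and cldn3d 10.79, 10.82, 10.44 and 10.23, above every DMSO pool of 1 to 3 dpf in both genes. Their rises from 3 to 4 dpf were 0.78 (SE 0.10, adjusted p = 2.4e-05) and 0.65 (SE 0.12, adjusted p = 0.00144). cldn3d also rose by 0.62 from 2 to 3 dpf (adjusted p = 0.00318). The dips from 1 to 2 dpf were -0.32 and -0.42 (adjusted p = 0.043 and 0.0352). The dip of cldn3c was lost without any 1 of DMSO replicates 2 and 3 of 1 dpf and DMSO replicates 1 and 3 of 2 dpf (adjusted p up to 0.179) and was -0.53 with 75th percentile scaling, and that of cldn3d without any 1 of the 6 arrays compared other than DMSO replicate 2 of 1 dpf (adjusted p up to 0.19). The rise of cldn3c by 0.35 from 2 to 3 dpf (adjusted p = 0.0316) was lost without any 1 of 5 of the 7 arrays, all but DMSO replicate 2 of 2 dpf and DMSO replicate 2 of 3 dpf (adjusted p up to 0.134).

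Falls were fewer among the claudins. cldn5a, whose mammalian counterpart seals the blood-brain barrier, measured 9.38, 9.15 and 9.12 at 1 dpf, 8.51, 8.18 and 7.94 in the 2 dpf pools, 7.30, 7.36, 6.64 and 6.68 at 3 dpf, and 7.01, 6.73, 6.50 and 6.63 in the 4 dpf pools. cldn5a fell by 1.01 (SE 0.20, adjusted p = 0.000727) and by 1.14 (SE 0.19, adjusted p = 0.000319). From 1 to 4 dpf it fell by 2.43, 5.37-fold. cldn5b, its paralogue, measured 9.71, 10.29 and 10.34 at 1 dpf and 10.46, 10.92 and 10.57 in the 2 dpf pools, and its rise of 0.54 (SE 0.19, adjusted p = 0.0494) lay at the edge of the threshold. That call was lost without any 1 of the 6 arrays other than DMSO replicate 3 of 1 dpf (adjusted p up to 0.267).

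cldn30 fell by 0.63 (SE 0.11, adjusted p = 0.000233), from 9.10, 9.04 and 8.75 at 1 dpf to 8.42, 8.54 and 8.05 in the 2 dpf pools, and its second probe fell by 1.05 (adjusted p = 0.0109). Without the replicate block the fall of the main probe was not called (adjusted p = 0.164). cldn12 was called from 2 to 3 dpf (-0.32, SE 0.10, adjusted p = 0.0463), although its pools of these stages overlapped, and the call was lost without any 1 of the 7 arrays compared (adjusted p up to 0.153). It was also lost after normexp (-0.19) and as the median over its probes (-1.07, adjusted p = 0.123). cldn8.2, the relative of a kidney claudin of mammals, was called from 3 to 4 dpf with a rise of 0.94 (SE 0.22, adjusted p = 0.00924). Its pools measured 10.35, 9.89, 9.78 and 9.87 at 3 dpf and 10.89, 11.39, 10.65 and 10.73 in the 4 dpf pools, and without DMSO replicate 2 of 4 dpf the rise was 0.76 (adjusted p = 0.0523).

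cldn1, which in mammals is needed for the water barrier of the skin, measured 13.15, 13.86 and 13.67 at 1 dpf and 13.96, 14.09 and 14.04 in the 2 dpf pools. It rose by 0.47 (SE 0.16, adjusted p = 0.0321), and the call was lost without any 1 of the 6 arrays other than DMSO replicate 2 of 1 dpf (adjusted p up to 0.238, and a change of 0.29 without DMSO replicate 1 of 1 dpf). The neighbouring genes cldn8.1 and cldn8.3 were not called at any step, nor was cldn10b. cldn10a was above background on 4 of 28 arrays.

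The same steps were taken by the E2 embryos, which are separate pools that enter the same fit. Of the members called in DMSO, 9 of 9 keratins and 11 of 13 claudins were also called in the same direction from 1 to 2 dpf in E2, where 89.2% of all named genes called in DMSO were. From 2 to 3 dpf it was 6 of 8 and 8 of 10 (71.4% of such genes), and from 3 to 4 dpf 6 of 7 and 5 of 6 (73.9%), so the members' shares lay near those of all genes. Of these, krt93 and krt95 were above background in 1 of 4 E2 pools at 4 dpf. Those not called in E2 were cldn15lb and cldn3c, then krt1-c5, krt18b, cldn2 and cldn3c, then krt94 and cldn8.2, and each of them kept its direction. In E2 the rise of cldn15lb from 3 to 4 dpf, not called in DMSO, was 2.55 (SE 0.53, adjusted p = 0.00264), and the difference between the treatments was not tested for this step alone. On the E2 array of 3 dpf that stood apart, cldn15lb measured 4.44 against 6.04 to 6.72 in the other pools. There cldn2 measured 3.92 against 7.12 to 7.35. The steps in E2 are not given without this array.

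Scanning had been done in 3 batches, and within the larger 2 of them all 53 called changes between DMSO stages kept their direction. Each of these batches held between 1 and 2 pools of a stage, and the batches are part of the arrays fitted. Each of these 2 batches spans several slides, and the remaining batch is slide 4 alone, with 1 DMSO and 3 E2 arrays. No slide held DMSO arrays of both 2 and 3 dpf, and slide 3 alone held DMSO arrays of both 3 and 4 dpf. Among the DMSO arrays, stage and slide are thus not separated from 2 to 3 dpf and little separated from 3 to 4 dpf. Of those above background at both stages, 6 differed in size from the pooled change by over 1.5 times in 1 batch, which were the first steps of cldn3c (-0.49), cldn5b (0.23) and krt5 (-0.34), and the middle steps of krt1-c5 (0.59), krt15 (0.52) and krt18b (-1.91).

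E2 against DMSO gave 0 of 17 keratins and 0 of 23 claudins with an adjusted p under 0.05 at 1, 2, 3 or 4 dpf in limma, where 0, 2, 2 and 8 of the 10536 named genes passed (0%, 0.019%, 0.019% and 0.0759%). The study's own thresholds, an unadjusted p of at most 0.01 and a fold change of at least 1.4, were met by 0.209%, 0.171%, 0.664% and 0.361% of named genes at the 4 stages and by 0, 0, 1 and 0 of the 40 members. An unadjusted p under 0.05 was reached by 0, 0, 3 and 1 members, where 0.978%, 0.94%, 4.84% and 1.77% of named genes reached it. A rerun of the methods' one-way analysis of variance gave 0 members at the study's thresholds and 0 after adjustment at each of the 4 stages. In this rerun 70, 73, 125 and 169 of all probes met the study's thresholds at 1, 2, 3 and 4 dpf. The paper reports more probes at each stage. The rerun thus did not reproduce its counts and does not show which members its lists hold. Among human homologues of genes regulated at both 3 and 4 dpf, the paper lists the keratin KRT20. The zebrafish gene behind that entry was not traced here. The median effect of E2 on the keratins was 0.02, 0.00, -0.04 and -0.05 and on the claudins 0.00, 0.02, -0.07 and -0.03. The stage-by-E2 terms were called for 0 of 40 members (0.0759% of named genes), and 1 of 40 had an unadjusted p under 0.05, where 0.978% of named genes did. The median SE over all probes was 0.32 at the 2 earlier stages and 0.28 at the 2 later ones, so small effects were not detectable at this number of arrays.

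**Figure D4:**
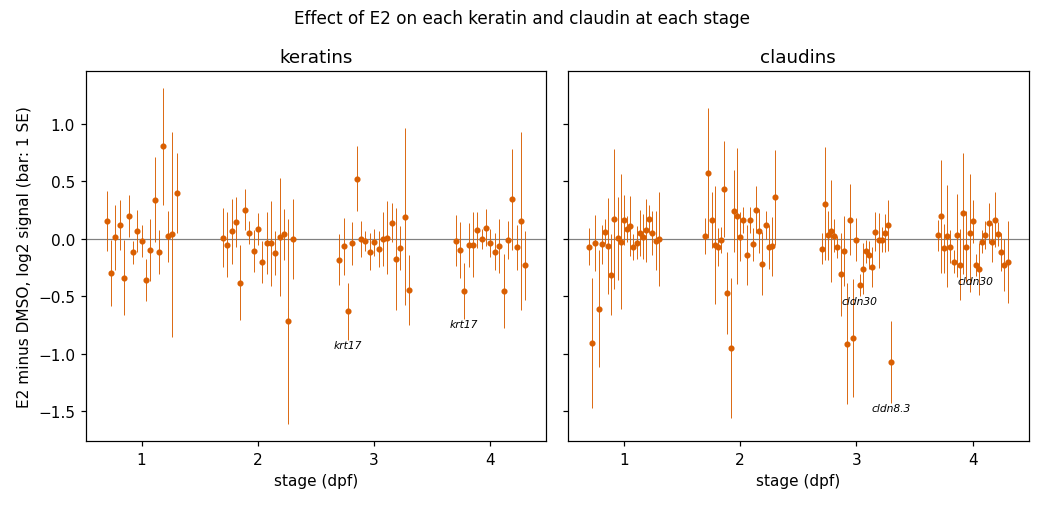
E2 minus DMSO in log2 signal at each stage for 17 keratins (left) and 23 claudins (right), in alphabetical order within a stage, with bars of 1 SE. The points scatter around 0, and the named ones are krt17, cldn8.3 and cldn30, whose changes at 3 dpf were -0.63, -1.07 and -0.41.

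The member past the study's thresholds was cldn8.3 at 3 dpf. It measured 4.00, 4.79, 6.16 and 6.25 with DMSO and 1.62, 4.01, 5.43 and 5.86 with E2, lower in 4 of 4 pairs of the same replicate number, while the groups overlapped. The change was -1.07 (SE 0.36, unadjusted p = 0.00736 and adjusted p = 0.654 in limma). The value of 1.62 is from the array that stood apart, and without it the change was -0.53. After scaling to the 75th percentile the change was -0.04 and after normexp -0.26. Within the scan batches it was -1.18 (2 E2 pools and 1 DMSO pool) and -0.56 (2 pools of each).

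krt17 was lower with E2 in 4 of 4 pairs at 3 dpf and in 4 of 4 at 4 dpf. At 3 dpf the E2 pools measured 12.83, 12.09, 12.87 and 12.62, all below the lowest DMSO pool at 12.99. The groups of krt17 thus did not overlap at this stage. For E2 at 1 dpf the groups of 1 of 23 claudins did not overlap either, so this trait is not particular to krt17. Besides krt17, cldn8.3 and cldn30, the members krt1-c5, krt99 and cldn2 were also lower in 4 of 4 pairs at 3 dpf. At 4 dpf krt93 was as well. Neither such pairs nor overlap were counted over all named genes. The change of krt17 at 3 dpf was -0.63 (SE 0.24, unadjusted p = 0.018, adjusted p = 0.654 in limma). The change at the next stage was -0.46 (SE 0.24, unadjusted p = 0.0782, adjusted p = 1), with pools of 14.15, 13.07, 14.03 and 13.56 against 14.72, 13.45, 14.06 and 14.41. At 1 and 2 dpf the changes were 0.01 and 0.06. krt17 passed the study's thresholds at 3 dpf under 75th percentile scaling (-0.76) and after normexp (-0.69), which cldn8.3 did not. Without the array that stood apart the change at 3 dpf was -0.54. Within the scan batches it was -0.99 and -0.50 at 3 dpf, and at 4 dpf 0.06 and -0.44. The 0.06 sets E2 replicate 1 against the mean of DMSO replicates 1 and 2, whereas E2 replicate 1 was lower than DMSO replicate 1 (14.15 and 14.72).

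cldn30 had the smallest unadjusted p of the 40 members, 0.000492 in the 3 dpf pools. It measured 7.64, 7.93, 7.30 and 7.32 with E2 and 8.34, 8.304, 7.60 and 7.58 with DMSO, lower in 4 of 4 pairs, a change of -0.41 (SE 0.10, adjusted p = 0.55 in limma) that is below 1.4-fold. At 4 dpf it was again lower in 4 of 4 pairs (-0.23, SE 0.10, unadjusted p = 0.0293), and at 1 and 2 dpf the changes were 0.08 and 0.16. Without the array that stood apart the change at 3 dpf was -0.34. The second probe of the gene changed by 0.03 at 3 dpf with the array that stood apart included. On that array it measured 5.03, against 3.90 in DMSO replicate 1. In replicates 2, 3 and 4 it measured 4.08, 4.29 and 4.37 with E2 and 4.87, 4.32 and 4.56 with DMSO. No fit of this probe without that array is given. cldn30 was also the member with the lowest unadjusted p for the stage-by-E2 terms, 0.0031, with an adjusted p of 1.

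Claudins named by a letter, and genes that work beside these families, were described from lists. Of the 11 claudins named by a letter 11 were measured, and cldn3c and cldn3d are the current names of a pair of them. Of the other 9 the test called 5 from 1 to 2 dpf, 5 lower and 0 higher, with a median change of -0.78, where 39.9% of all named genes were called, 22% lower. They were cldna (-1.26), cldnd (-1.04), cldne (-0.999), cldng (-1.81) and cldnk (-0.57). In the later steps cldnk, a claudin of myelin in the zebrafish, rose by 2.16 and 1.27, whereas cldng fell by 1.36 from 2 to 3 dpf and cldnd fell by 1.02 from 3 to 4 dpf.

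Of 22 tight junction partners 7 were measured, and 3 of 7 were called lower from 1 to 2 dpf and 0 higher, beside 22% and 17.9% of all named genes. These were the adhesion molecules f11r.1 (-0.54), jam2a (-1.30) and jam3b (-0.55). The occludins oclna and oclnb, which join claudins in the junction, changed by -0.12 and -0.48 and were not called at this step, and oclna rose by 0.33 from 3 to 4 dpf. Of 22 genes of desmosomes, hemidesmosomes and keratin linkers 6 were measured. At the first step 2 were called higher and 1 lower, beside 17.9% and 22% of all named genes. Higher were itga6b (0.72) and itgb4 (0.76), the integrin pair of hemidesmosomes, and lower was jupa (-0.44), a desmosome plaque protein. From 2 to 3 dpf 0 were called higher and 1 lower (15.1% and 10.8% of named genes). From 3 to 4 dpf 0 of 6 were called (19.4%). From 1 to 4 dpf 0 were called higher and 1 lower (28.8% and 37.1%).

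Of 23 genes of epidermal fate, adhesion and periderm 10 were measured. From 1 to 2 dpf icn (0.76) was called higher and anxa1b (-0.65) and cdh1 (-0.54) lower, 0 of 10 were called from 2 to 3 dpf (25.9% of all named genes), and tp63, the regulator of basal epidermis, was called lower from 3 to 4 dpf (-0.44). From 1 to 4 dpf 5 of these 10 genes were called, 2 higher and 3 lower, beside 65.9% of named genes (28.8% higher and 37.1% lower). Over this span the RNA for tp63 fell by 0.98 and krt15 rose by 5.75, and a link between them was not tested. The mean signal of krt5 in DMSO was 17.40 at 1 dpf and 17.26 at 4 dpf. E2 changed 0 of these 32 genes of the 4 lists at an adjusted p under 0.05 at any stage, and 1 of them, itgb4 at 3 dpf (-0.515, adjusted p = 0.654), had an unadjusted p under 0.05.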

How the data were processed

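The authors deposited 1 scanner output per array, made with Agilent Feature Extraction (version 11.0.1.1 per the labels, 10.7.3.1 per the file headers). The deposited processed signal is an intensity from which, per the file headers, background and spatial trend were subtracted, with no normalization between arrays. Spots marked as outliers were left out (3 to 529 per array), log2 signals were quantile normalized, and spots of a probe averaged. A linear model with 8 groups and the replicate number as a block was fitted in limma 3.58.1 under R 4.3.3. Same-numbered DMSO and E2 arrays deviated together across probes (r over 0.1 in 14 of 14 pairs, 0.173 to 0.649). So did same-numbered DMSO arrays of different stages (19 of 19 pairs, 0.167 to 0.648). On this basis arrays of the same number were treated as pairs, and the methods likewise removed replicate effects. At each stage the DMSO and E2 arrays of replicates 1, 3 and 4 shared a slide. Those of replicate 2 lay on different slides and scan batches (r 0.231 to 0.334). Whether the shared deviation came from the slide, the scan batch or the embryos was not tested. Probes were named through RefSeq accessions, of which 15163 of 19212 matched. No genome of the build in the file headers was used, so neighbours, under 100000 bases apart, come from GRCz12tu.

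Members and lists were chosen with earlier results of these data known. Named genes are the 3 largest called rises and falls per family and step, members past a threshold for E2, and a list of common members. krt222, krt98, cldn3c, cldn29, cldn33b, cldn8.1 and cldn10b fall outside that rule and were chosen after their values were seen. Alternatives covered scaling, background correction (normexp with an offset of 50), a filter on dim probes, blocks, samples fitted and the median over probes. Each array was also left out, for the results that its group enters. Array weights and the steps in E2 were added after seeing the data. The fit was also run on simulated data with known changes. These held independent noise and no replicate, slide or array effects, so that run does not test the replicate block. The number of arrays limits the precision.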

Additional observations from a re-analysis of the deposited data

Results flagged for a closer look

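In groups of 4 pools a value was picked out where its gap to the nearest pool took up most of the range of the group (Dixon's limit for 4 pools). Of 159 groups 8 had such a pool, and chance picks out about 5% of groups. E2 replicate 1 at 3 dpf, the array that stood apart, gave 3 of them. There cldn15la measured 7.83 against 9.28 to 9.41 in the other pools, cldn2 measured 3.92 against 7.12 to 7.35, and krt93 measured 0.98 against 0.70 to 0.72. In this group krt93 was marked well above background on 1 of 4 arrays, although all 4 signals are low. E2 replicate 4 at 4 dpf, the array with 529 outlier spots, gave cldn1 at 13.55 against 13.77 to 13.80 and cldn33b at 6.48 against 6.95 to 7.03. DMSO replicate 1 at 4 dpf gave cldn3c at 12.77 against 12.52 to 12.55 and krt95 at 0.70 against 3.29 to 3.45. E2 replicate 2 at 3 dpf gave krt18b at 11.01 against 9.79 to 9.83. Their causes were not tested.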

How the results depend on the processing

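The 53 called changes between DMSO stages were refitted under 9 other settings, and none turned its direction. Nor did any without 1 of the DMSO arrays of its 2 stages, or without E2 replicate 1 of 3 dpf. The other E2 arrays were not left out for these changes. With 75th percentile scaling 45 of 53 kept their call, after normexp 50, with the scan batch as block 49, with the slide as block 42, with only the stages compared 47, with the median over probes 51, with array weights (added after seeing the data) 53, and with the filter on dim probes 52 of 52, since krt95 did not pass it. Without the replicate block 38 of 53 did. Those lost were cldn1, cldn29, cldn30, cldn3c, cldn3d and cldn5b from 1 to 2 dpf, cldn12, cldn3c, cldn3d and krt15 from 2 to 3 dpf, and cldn29, cldn3d, krt15, krt17 and krt94 from 3 to 4 dpf (adjusted p 0.0506 to 0.303). With the slide as block they were cldn12, cldn2, cldn29, cldn3c, krt15, krt18b, krt5 and krt97 from 2 to 3 dpf and cldn29, krt94 and krt95 from 3 to 4 dpf (0.0555 to 0.384). 75th percentile scaling lost cldn1, cldn5b, cldn12, cldn3c, krt5, cldn29, krt94 and krt95 (0.0606 to 0.216), the scan batch cldn5b, cldn12, krt15 and krt17 (0.0502 to 0.199), and the stages compared alone cldn3c at both early steps, krt5, cldn12, cldn2 and krt18b (0.0519 to 0.122), and the median over probes cldn12 from 2 to 3 dpf and krt97 from 3 to 4 dpf (0.123 and 0.0546). Without the replicate block the keratins called from 3 to 4 dpf were 4 in place of 7, the claudins called from 1 to 2 dpf 7 in place of 13, and the members past the study's thresholds for E2 at 3 dpf 0 in place of 1. The slide as block gave 5 keratins in place of 8 from 2 to 3 dpf, 0 members for E2 at 3 dpf and 1 at 4 dpf (krt93, -0.52). For E2 at 3 dpf the scan batch as block, a fit of that stage alone, array weights and the rerun one-way analysis of variance also gave 0. Under 75th percentile scaling and under normexp it was 1, krt17 and not cldn8.3. 75th percentile scaling moved the median of all probes for E2 at 3 dpf from -0.02 to 0.24, for 2 to 3 dpf from -0.01 to 0.10 and for 1 to 4 dpf from -0.16 to 0.07.

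DMSO arrays and E2 replicate 1 of 3 dpf were left out in turn. Keratins called between any stages were then 14 to 15 and claudins 15 to 18. For a single step only DMSO arrays of its 2 stages and that E2 array were left out. For E2 at a stage it was only the arrays of that stage and that E2 array. Keratins were 8 to 10, 6 to 8 and 4 to 7 over the 3 steps, the 4 being without DMSO replicate 3 or 4 of 4 dpf, and claudins 9 to 15, 7 to 11 and 5 to 7. Members past the study's thresholds for E2 were 0 to 1 at 1 dpf (cldn11a, -1.42, without E2 replicate 3), 0 to 0 at 2 dpf, 0 to 2 at 3 dpf and 0 to 0 at 4 dpf. At 3 dpf it was 0 without E2 replicate 1 or any DMSO replicate, and 2 without E2 replicate 3. The stage-by-E2 count was 0 to 0. Members near background, krt93, krt95, cldn10a, cldn15b and cldn15lb, are limited by their signal.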
